A study of Mus musculus with 45 samples.

Results

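The NOD2-RIPK2 signalling genes described here are 8 genes chosen by name, *Nod1*, *Nod2*, *Ripk2*, *Xiap*, *Birc2*, *Birc3*, *Slc15a3* and *Slc15a4*, of 29307 genes in the deposited count table. All 8 were matched to a gene symbol and its Ensembl identifier, and all 8 passed the filter on low counts. They were followed in bone marrow-derived macrophages of C57BL/6N mice aged 6 to 10 weeks that carried *Faminp.254I*, *Faminp.254V* or *Faminp.284R*, with 5 mice of each genotype. *Famin*, listed as *Lacc1*, encodes a purine enzyme, and the study introduces p.254V as an allele of reduced and p.284R as one of absent activity. Cells of each mouse were grown for 6 days with M-CSF and then left unstimulated (M0), polarized with IFN-γ plus LPS (M1) or polarized with IL-4 (M2), which gave 45 poly(A) RNA libraries in 9 groups of 5. Cultures were assigned to a mouse by genotype and replicate number in the labels. Every group shares the strain and the M-CSF culture, the 3 cultures of a mouse are not independent of each other, and differentiation *in vitro* limits all of them as a model of tissue macrophages.

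NOD1 and NOD2 are cytosolic receptors for fragments of bacterial peptidoglycan. NOD2 recognizes muramyl dipeptide, which the lysosomal peptide transporters SLC15A3 and SLC15A4 carry out of endolysosomes. On binding, both receptors oligomerize and recruit the kinase RIPK2, the ubiquitin ligases XIAP, cIAP1 (encoded by *Birc2*) and cIAP2 (encoded by *Birc3*) attach ubiquitin chains to it, and the chains bring in the kinases that activate NF-κB and MAP kinases.

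Total counts ran from 17239009 to 43740283 per library, with a median of 27553642. Summed over 7 macrophage markers, libraries held 8151 to 11467 CPM (counts scaled to library size) in M0, 5981 to 7268 in M1 and 5473 to 8060 in M2. M1 markers summed to at least 2685 CPM in M1 and at most 152 CPM elsewhere, although *Il12b*, one of 5 on that list, stayed at or below 0.201 CPM in M1. M2 markers summed to at least 4929 CPM in M2 and at most 914 CPM elsewhere, where *Mrc1* made up most of the sum (means 756 in M0 and 155 in M1). Within M1, *Arg1* reached 40.8 CPM against a mean of 3.32, and *Retnla* 49.1 against a mean of 3.34. Markers of other cell types moved with polarization too: 7 neutrophil markers summed to 23.5 to 253 CPM in M0, 35.8 to 114 in M1 and 14.7 to 68.1 in M2 with *Ly6g* at or below 0.461, 5 fibroblast markers to 17.1 to 89.6, 6.70 to 20.8 and 9.53 to 32.96, and 5 dendritic cell markers to 0.717 to 2.31, 209 to 432 and 4.14 to 14.1, nearly all of the M1 sum being *Clec9a* while *Flt3* stayed at or below 0.317. Their part in the differences below was not tested. The *Famin* variants change a protein, and *Lacc1* counts do not check the genotype labels. In M1 *Lacc1* spanned 486 to 523 CPM in *Faminp.254I*, 533 to 597 in *Faminp.254V* and 218 to 584 in *Faminp.284R*. In bulk RNA, fewer cells of a type and less RNA per cell cannot be told apart.

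*Nod1* (ENSMUSG00000038058) lies on the minus strand of chromosome 6 of mm10 from 54923949 to 54972612 and has 16 merged exons. *Nod2* (ENSMUSG00000055994) lies on the plus strand of chromosome 8 from 88647315 to 88688474 and has 14. The bases before their annotated starts are shown because both receptor genes moved the same way with each polarization. They are taken from RefSeq on GRCm38.p6 (the mm10 assembly), read 5′ to 3′ on the strand of the gene and stopped before any annotated exon, and the second of *Nod1* lies in an intron of the gene. They cover chr6:54972613-54972862 and chr6:54971662-54971911 (minus strand) for the starts of *Nod1* and chr8:88647097-88647314 (plus strand) for *Nod2*, and capitals mark the one match found.
Nod1 start 1: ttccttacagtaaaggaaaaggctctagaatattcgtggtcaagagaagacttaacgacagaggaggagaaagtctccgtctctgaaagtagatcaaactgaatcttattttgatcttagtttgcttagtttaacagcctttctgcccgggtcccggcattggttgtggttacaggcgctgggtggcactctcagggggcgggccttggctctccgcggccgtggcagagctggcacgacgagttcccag
Nod1 start 2: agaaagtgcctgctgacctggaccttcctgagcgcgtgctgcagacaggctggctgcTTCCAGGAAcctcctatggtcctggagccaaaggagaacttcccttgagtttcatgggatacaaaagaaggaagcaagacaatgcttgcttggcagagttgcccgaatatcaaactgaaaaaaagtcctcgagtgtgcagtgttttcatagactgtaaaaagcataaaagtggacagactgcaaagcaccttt
Nod2: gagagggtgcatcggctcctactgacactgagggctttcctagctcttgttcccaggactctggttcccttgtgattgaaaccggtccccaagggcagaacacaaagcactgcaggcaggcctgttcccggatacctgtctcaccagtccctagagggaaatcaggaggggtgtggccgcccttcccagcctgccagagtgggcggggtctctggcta

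The 250 bases before each start were searched on both strands for 4 motifs: the interferon-gamma activated site (GAS, TTCNNNGAA), the STAT6 site (TTCNNNNGAA), the interferon-stimulated response element (GAAANNGAAA) and the NF-κB site. Of 32851 RefSeq promoters, 7.02% held the first, 5.85% the second, 2.98% the third and 7.25% the NF-κB site. For 6 of the 8 genes, *Nod1*, *Nod2*, *Xiap*, *Birc2*, *Birc3* and *Slc15a4*, 10 promoters were found, and *Ripk2* and *Slc15a3* had no entry. The single match was a GAS in the promoter of the second *Nod1* start, 193 to 185 bases before it. A match of letters is a description and shows no binding.

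Polarization toward M1 was asked first: which of the genes differed from M0 over the 3 genotypes together. In M1, 7 of the 8 genes were called (a p under 0.05 in the quasi-likelihood test of edgeR after the Benjamini-Hochberg correction over 12905 genes, written padj below), 5 higher and 2 lower. The receptors and their kinase rose most: *Nod1* to 6.11 times, *Nod2* to 4.07 times and *Ripk2* to 3.29 times their M0 level. Over all genes tested 77.3% were called, 37% higher and 40.3% lower, so a call by itself sets no gene apart. The median log2 fold change was 0.66 over the 8 genes and -0.03 over all genes. For 4 of the 8 (*Nod1*, *Nod2*, *Ripk2* and *Birc2*) the 15 M1 libraries did not overlap the 15 M0 libraries, against 28.6% of all genes.

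In M2, all 8 genes were called, 2 higher and 6 lower than in M0, against 76.4% of all genes, 36.8% higher and 39.6% lower. *Nod1* fell to 0.418 and *Nod2* to 0.36 times the M0 level, while *Ripk2* rose to 4.33 times it. The median log2 fold change was -0.56 over the 8 genes and -0.03 over all genes. The 15 M2 libraries did not overlap the 15 M0 libraries for 4 of the 8, *Nod1*, *Nod2*, *Ripk2* and *Slc15a4*, against 23.4% of all genes. Between M1 and M2 all 8 were called as well, 6 higher and 2 lower in M1, against 79.1% of all genes, 39% higher and 40.1% lower, and the libraries did not overlap for 4 (*Nod1*, *Nod2*, *Birc2* and *Birc3*), against 35.7% of all genes. The 3 comparisons share libraries, so they are not independent of each other.

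**Figure D1:**
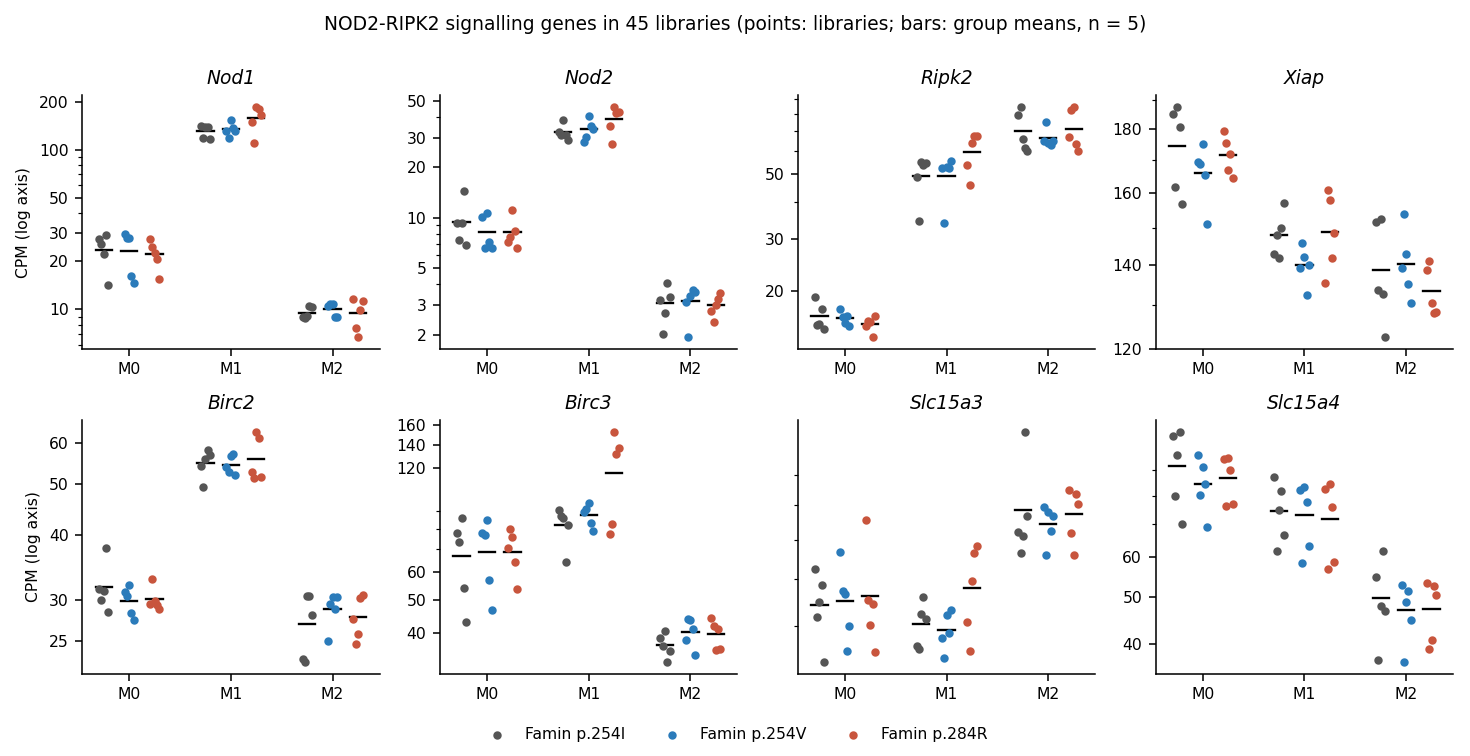
CPM of the 8 genes in each of the 45 libraries (log axis), by polarization (M0, M1, M2) and *Famin* genotype (color), with bars at the group means (n = 5). *Nod1* and *Nod2* were highest in M1 and lowest in M2, with no overlap, while *Ripk2* was above every M0 library in both M1 and M2.

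**Figure D2:**
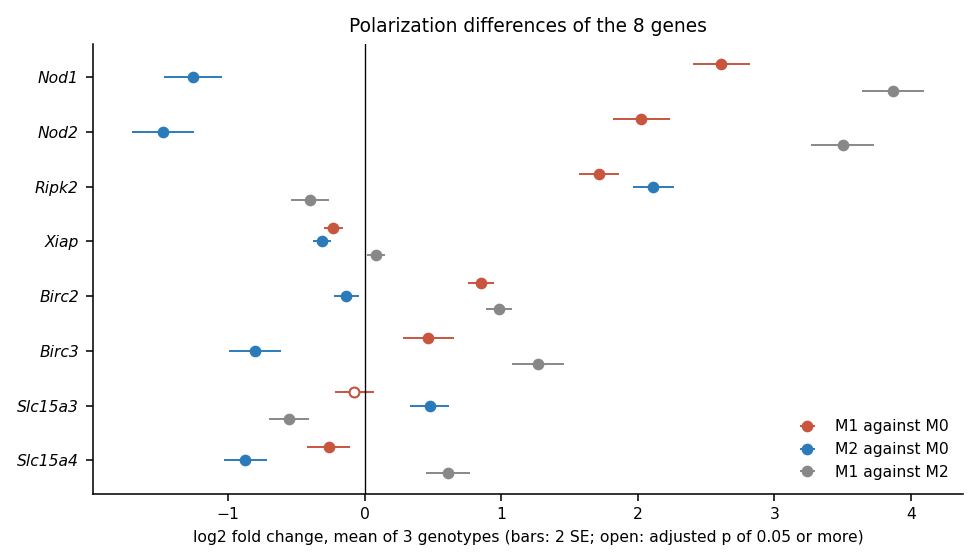
Log2 fold change of each gene between polarizations, averaged over the 3 genotypes, with bars of 2 SE. *Nod1* and *Nod2* lie to the right for M1 and to the left for M2, *Ripk2* lies to the right for both, and the open symbol is *Slc15a3* in M1 against M0, the one difference not called.

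Of the receptors, *Nod1*, the receptor for peptidoglycan fragments that hold diaminopimelic acid, had from 14.1 to 29.6 CPM in M0 (median 24.6, n = 15), from 110 to 186 in M1 (median 138) and from 6.67 to 11.6 in M2 (median 9.88). No M1 library reached down to an M0 library and no M2 library reached up to one, so the order M1, M0, M2 held in every mouse. *Nod1* had a log2 fold change of 2.61 (SE 0.10, padj = 2.91e-24) in M1 and -1.26 (SE 0.11, padj = 1.21e-13) in M2 against M0 in the edgeR quasi-likelihood test. Within single mice, M1 exceeded M2 by 10.9 to 27.8 times.

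*Nod2*, the receptor for muramyl dipeptide, was the scarcest of the 8 per length of transcript. It had 6.55 to 14.4 CPM in M0 (median 7.69, n = 15), 27.6 to 46.0 in M1 (median 34.05) and 1.93 to 4.08 in M2 (median 3.21), and none of these ranges overlapped. *Nod2* had a log2 fold change of 2.03 (SE 0.11, padj = 1.34e-20) in M1 and -1.47 (SE 0.11, padj = 6.63e-15) in M2 against M0 in the edgeR quasi-likelihood test. M1 exceeded M2 in the same mouse by 7.62 to 15.8 times. Even in M2 each library held from 48 to 132 reads of the gene.

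*Ripk2* (ENSMUSG00000041135, minus strand of chromosome 4 from 16122733 to 16163647, 12 merged exons), the kinase that both receptors recruit, did not share the order of the receptors. It had 13.9 to 19.0 CPM in M0 (median 15.7, n = 15), 33.9 to 67.2 in M1 (median 53.6) and 59.9 to 84.5 in M2 (median 64.9). Both polarized states lay wholly above M0 and overlapped each other. The log2 fold change against M0 was 1.72 (SE 0.07, padj = 1.78e-23) in M1 and 2.11 (SE 0.07, padj = 8.1e-26) in M2 in the edgeR quasi-likelihood test. Between M1 and M2 it was lower in M1 (log2 fold change -0.40, SE 0.07, padj = 2.59e-06, edgeR quasi-likelihood test), and 2 of 15 mice had more *Ripk2* in M1 than in M2. *Gm22690* overlaps *Ripk2* on the same strand and has no row in the count table used here.

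Receptors and kinase ranked differently in the 3 states. Per kilobase of merged exons, mean *Ripk2* was 5.67, 18.7 and 24.6 CPM in M0, M1 and M2, where mean *Nod1* was 4.54, 27.8 and 1.90 and mean *Nod2* was 1.72, 6.99 and 0.614. *Nod1* thus stood above *Ripk2* in M1 and below it in M0 and M2. Merged exons include every annotated isoform, so these levels are approximate.

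Among the ubiquitin ligases, *Birc2* and *Birc3* rose in M1 and *Xiap* fell in both states. *Birc2* (ENSMUSG00000057367) and *Birc3* (ENSMUSG00000032000) are neighbors on the minus strand of chromosome 9, from 7818227 to 7837064 and from 7848699 to 7873186, with 11634 bases between them. They are paralogues, and 1.42% of the 50-base words of *Birc2* transcripts and 1.28% of those of *Birc3* also stand in the other gene, so few reads of that length could be split between them.

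*Birc2* had 27.5 to 37.7 CPM in M0 (median 29.9, n = 15), 49.5 to 63.1 in M1 (median 54.1) and 22.8 to 30.7 in M2 (median 28.9). Every M1 library lay above every M0 and M2 library, which overlapped each other. *Birc2* had a log2 fold change of 0.85 (SE 0.05, padj = 6.04e-20) in M1 and -0.13 (SE 0.05, padj = 0.0105) in M2 against M0 in the edgeR quasi-likelihood test. The fall in M2 was small, 4 of 15 mice had more *Birc2* in M2 than in M0, and without replicate 2 of *Faminp.284R* it was not called (log2 fold change -0.10, padj = 0.0502, same test).

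*Birc3* had 43.1 to 86.2 CPM in M0 (median 73.6, n = 15), 64.5 to 152 in M1 (median 87.3) and 33.02 to 44.4 in M2 (median 38.7). The M0 range overlapped both others, and the M1 and M2 ranges did not meet. Against M0 the log2 fold change was 0.47 (SE 0.09, padj = 2.17e-05) in M1 and -0.80 (SE 0.09, padj = 7.36e-10) in M2 in the edgeR quasi-likelihood test. In the same mouse M1 was above M0 in 14 of 15 mice and above M2 in 15 of 15. The ratio of M1 to M0 within a mouse ran from 0.999 to 2.55. Its median of 1.19 was below the 1.38 times of the fit.

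*Xiap* (ENSMUSG00000025860, plus strand of chromosome X from 42059679 to 42109656, 13 merged exons) varied least. It had 151 to 187 CPM in M0 (median 169, n = 15), 133 to 161 in M1 (median 143) and 123 to 154 in M2 (median 135). All 3 ranges overlapped. The log2 fold change against M0 was -0.23 (SE 0.03, padj = 8.81e-08) in M1 and -0.31 (SE 0.03, padj = 7.97e-11) in M2 in the edgeR quasi-likelihood test, and *Xiap* was lower than in M0 in 15 of 15 mice in M2. M1 against M2 gave a log2 fold change of 0.08 (SE 0.03, padj = 0.024, edgeR quasi-likelihood test). That call was lost when replicate 4 or 5 of *Faminp.254I*, replicate 5 of *Faminp.254V* or replicate 3 of *Faminp.284R* was left out (adjusted p from 0.0602 to 0.1, same test).

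The transporters moved in opposite directions in M2. *Slc15a3* (ENSMUSG00000024737, plus strand of chromosome 19 from 10839727 to 10859362, 7 merged exons) had 434 to 756 CPM in M0 (median 549.6, n = 15), 441 to 683 in M1 (median 513) and 659.6 to 1066 in M2 (median 766). M0 and M1 covered nearly the same range, and 6 of 15 mice had more in M1. *Slc15a3* had a log2 fold change of -0.08 in M1 (interval of 2 SE from -0.22 to 0.07, padj = 0.335) and 0.48 in M2 (SE 0.07, padj = 1.76e-07) against M0 in the edgeR quasi-likelihood test. It had more in M2 than in M0 in 15 of 15 mice.

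*Slc15a4* (ENSMUSG00000029416, minus strand of chromosome 5 from 127595664 to 127632897, 10 merged exons) had 69.1 to 108 CPM in M0 (median 90.2, n = 15), 56.9 to 87.3 in M1 (median 75.9) and 36.8 to 61.8 in M2 (median 48.7). M0 and M2 did not overlap, and M1 lay between them and overlapped both. The log2 fold change against M0 was -0.26 (SE 0.08, padj = 0.003) in M1 and -0.87 (SE 0.08, padj = 1.14e-12) in M2 in the edgeR quasi-likelihood test, with *Slc15a4* below M0 in 15 of 15 mice in both. Genes on the opposite strand overlap both transporters: *Tmem132a*, overlapping *Slc15a3*, had 1.79 to 11.1 CPM, and *Glt1d1*, overlapping *Slc15a4*, had at most 0.241 CPM. Libraries were strand-specific, but whether strand was used in counting is not given in the sources used here.

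Per kilobase, mean *Slc15a3* led in each state with 101, 95.6 and 139.9 CPM in M0, M1 and M2. *Slc15a4* had 16.5, 13.8 and 9.02 CPM per kilobase, *Xiap* 18.0, 15.4 and 14.5, *Birc3* 13.6, 19.0 and 7.79, and *Birc2* 6.68, 12.05 and 6.09.

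Next, the genotypes were compared within each polarization. None of the 8 genes was called in any of the 9 comparisons, and the libraries of the compared genotypes overlapped for each of them. Over all genes tested, the share whose compared genotypes did not overlap was itself small, from 0.0697% (*Faminp.284R* against *Faminp.254V* in M0) to 0.62% (the same genotypes in M1). All genes were called rarely: 0.263% between *Faminp.284R* and *Faminp.254I* in M1 (34 genes), 0.0775% between *Faminp.284R* and *Faminp.254V* in M1 (10 genes), 0.00775% between *Faminp.284R* and *Faminp.254I* in M2 (1 gene) and 0% in the other 6. At an unadjusted p under 0.05, edgeR gave from 53 to 329 genes in those 6, where DESeq2 called 0 to 3 genes and limma-voom 0. Without any difference, a share of about 0.05 of the 12905 genes would fall under that p. Each of the edgeR counts was below that share, so they are no sign of differences. Why they were so low was not tested. Of the 8 genes, *Ripk2* and *Birc3* had an unadjusted p under 0.05, each in M1 and in *Faminp.284R* against both other genotypes, and no other gene did in any polarization.

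*Birc3* in M1 had 90.6, 87.3, 86.2, 64.5 and 81.9 CPM in replicates 1 to 5 of *Faminp.254I*, 89.6, 91.4, 95.0, 83.3 and 78.9 in *Faminp.254V*, and 77.4, 82.7, 152, 132 and 137 in *Faminp.284R*. Replicates 3, 4 and 5 of *Faminp.284R* were above every other M1 library, and replicates 1 and 2 lay among the other genotypes. Means were 82.1 ± 10.3, 87.6 ± 6.48 and 116 ± 33.9 CPM (SD, n = 5). For *Birc3* the log2 fold change of *Faminp.284R* was 0.50 against *Faminp.254I* (SE 0.16, padj = 0.319) and 0.41 against *Faminp.254V* (SE 0.16, padj = 0.658) in the edgeR quasi-likelihood test, so neither passed.

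*Ripk2* in M1 had 48.7, 34.6, 54.9, 53.7 and 54.4 CPM in *Faminp.254I*, 52.4, 33.9, 52.6, 52.5 and 55.2 in *Faminp.254V*, and 53.6, 45.9, 63.9, 67.1 and 67.2 in *Faminp.284R*. Replicates 3, 4 and 5 of *Faminp.284R* were again the highest, and replicate 2 was the lowest in every genotype. At each replicate number, including 1 and 2, *Ripk2* was higher in *Faminp.284R* than in both other genotypes. The test below does not pair libraries by that number. For *Ripk2* the log2 fold change of *Faminp.284R* was 0.27 against *Faminp.254I* (SE 0.12, padj = 0.657) and 0.27 against *Faminp.254V* (SE 0.12, padj = 0.748) in the edgeR quasi-likelihood test.

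*Nod2* in M1 had 32.5, 31.4, 38.6, 31.1 and 29.0 CPM in *Faminp.254I*, 28.4, 30.6, 40.8, 35.4 and 34.05 in *Faminp.254V*, and 35.5, 27.6, 46.0, 42.5 and 42.6 in *Faminp.284R*. Replicates 3, 4 and 5 of *Faminp.284R* were the highest of the 15, and its replicate 2 was the lowest. For *Nod2* the difference was a log2 fold change of 0.25 against *Faminp.254I* (interval of 2 SE from -0.09 to 0.60, padj = 0.905, edgeR quasi-likelihood test).

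The same 3 libraries stood apart in M1 markers. *Nos2*, the inducible nitric oxide synthase, had 81.5, 149 and 131 CPM in replicates 3, 4 and 5 of *Faminp.284R*, 25.6 and 8.60 in its replicates 1 and 2, and 3.01 to 26.0 in the other genotypes. The 5 M1 markers summed to 8152, 7278 and 7867 CPM in these 3 libraries, and to 2685 to 5446 in the other 12. These 3 libraries, singled out after their values were seen, were also the 3 highest in M1 for 5 of the 8 genes and for 4.85% of all genes tested. The 5 were *Birc3*, *Ripk2*, *Nod2*, *Nod1* with 164 to 186 CPM against at most 154 in the other 12 libraries, and *Slc15a3* with 595 to 683 CPM against at most 560.1. *Xiap*, *Birc2* and *Slc15a4* did not follow this order. The part of the M1 marker difference in the values of the 8 genes was not tested.

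**Figure D3:**
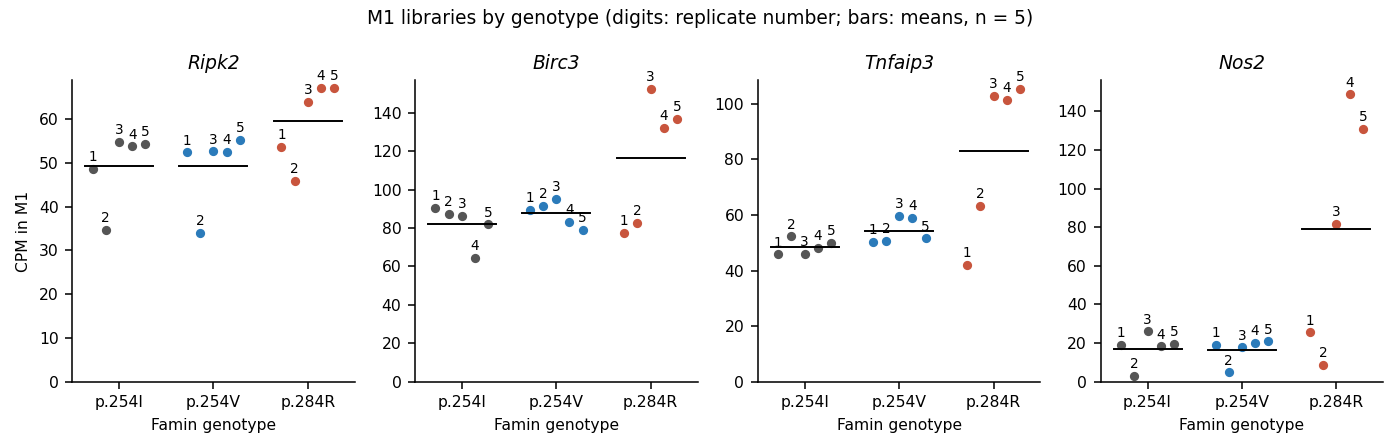
CPM of *Ripk2*, *Birc3*, *Tnfaip3* and *Nos2* in the 15 M1 libraries by *Famin* genotype, on linear axes from 0, with the replicate number at each point and bars at the means (n = 5). Replicates 3, 4 and 5 of *Faminp.284R* are the highest for all 4 genes, while its replicates 1 and 2 lie near the other genotypes. For *Ripk2*, *Faminp.284R* is the highest genotype at each replicate number.

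In M0 and M2 none of the 8 genes had an unadjusted p under 0.05 between genotypes. *Nod2* in M0 had means of 9.46 ± 2.95, 8.20 ± 2.01 and 8.18 ± 1.77 CPM in *Faminp.254I*, *Faminp.254V* and *Faminp.284R* (SD, n = 5), and 3.08 ± 0.78, 3.16 ± 0.72 and 3.002 ± 0.46 in M2. For *Ripk2* the means were 16.4 ± 1.75, 16.2 ± 0.85 and 15.4 ± 0.94 CPM in M0 and 70.1 ± 11.2, 66.2 ± 4.99 and 71.3 ± 11.3 in M2. These differences lay within the spread of the mice. The 2-SE intervals of *Faminp.284R* against *Faminp.254I* in M0 ran from -0.56 to 0.16 for *Nod2* and from -0.35 to 0.16 for *Ripk2* on the log2 scale.

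**Figure D4:**
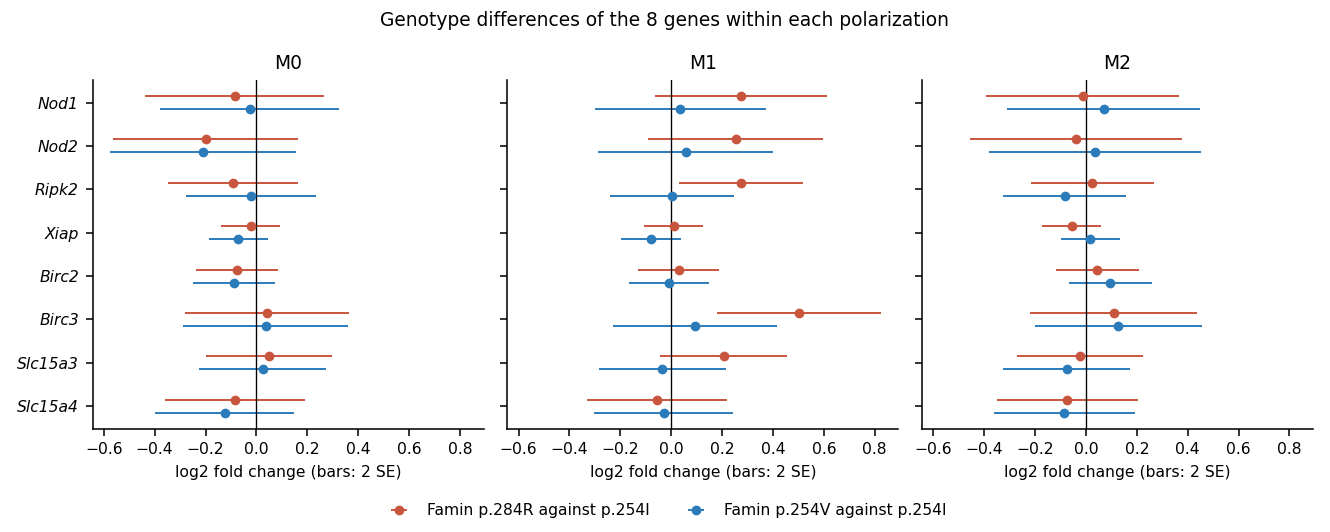
Log2 fold change of the 8 genes in *Faminp.284R* and *Faminp.254V* against *Faminp.254I* within M0, M1 and M2, with bars of 2 SE. The bars of *Birc3* and *Ripk2* for *Faminp.284R* in M1 do not reach 0, yet neither passed after adjustment, and all other bars cross 0.

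Whether genotypes differed in their response to polarization was tested by the difference of differences. None of the 8 genes was called for M1 or M2 in either variant genotype against *Faminp.254I*, and 0% of all genes were called in each of these 4 comparisons (70 to 356 genes at an unadjusted p under 0.05 by edgeR, and 0 by DESeq2 and limma-voom). The log2 difference of the M1 response between *Faminp.284R* and *Faminp.254I* was 0.37 for *Ripk2* (SE 0.18), 0.46 for *Birc3* (SE 0.23), 0.45 for *Nod2* (SE 0.25) and 0.36 for *Nod1* (SE 0.24), each with an padj = 1 (edgeR quasi-likelihood test). With the counts of the 3 cultures of a mouse summed, and mice as the units, none of the 8 genes and 0% of 13555 genes were called between any genotypes (138 to 372 genes at an unadjusted p under 0.05 by edgeR, 0 to 4 called by DESeq2 and 0 by limma-voom). The unadjusted edgeR counts of both kinds of test were again below a share of 0.05 of the genes tested. The largest such log2 difference among the 8 genes was 0.24 for *Birc3* in *Faminp.284R* against *Faminp.254I* (SE 0.12, padj = 1, edgeR quasi-likelihood test).

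Mice with the same replicate number deviated together across genotypes for several of these genes. For *Slc15a4* in M1, replicates 2 and 5 were the lowest in each genotype, with 61.9 and 66.6 CPM in *Faminp.254I*, 58.5 and 63.3 in *Faminp.254V* and 56.9 and 58.8 in *Faminp.284R*. Of the spread of log2 CPM within genotypes, 93.8% lay between replicate numbers for *Slc15a4* and 94.4% for *Ripk2* in M1, and 92.2% for *Birc3* in M0, against a median over all genes of 59.2% in M1 and 66% in M0. For *Birc3* in M1 it was 21.7%. What the replicate numbers mark is not given in the sources used here.

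The other genes of the pathway were taken from a list of 36, of which 34 could be tested and *Nlrp12* and *Slc46a2* could not. In M1, 18 were higher than in M0, 9 were lower and 7 were not called, and the median of the log2 fold changes was 0.11. In M2, 10 were higher, 13 lower and 11 not called, with a median of -0.03. The shares of all genes called are those given for the 8 genes. Each sentence below gives log2 fold changes from the same fit of the edgeR quasi-likelihood test.

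Of 6 tested genes listed for supply, processing and transport of muramyl peptides, 5 were called lower and 1 was not called in M1, and 4 were called lower and 2 were not called in M2, with none called higher, where 40.3% and 39.6% of all genes were called lower. The transporter *Slc15a3*, counted among the 8 genes and not on this list, was higher in M2. *Lyz2*, a macrophage lysozyme that cuts peptidoglycan, had 9817 to 23173 CPM in M0, 4505 to 8030 in M1 and 4051 to 7232 in M2 (n = 15 each), and its ranges in M1 and M2 lay below that of M0. Its log2 fold change was -1.51 (SE 0.11) in M1 and -1.68 (SE 0.11) in M2. *Slc46a3*, a lysosomal transporter, fell by 1.67 (SE 0.11) in M1, from a mean of 101 ± 22.7 to 32.1 ± 7.41 CPM (SD, n = 15), and *Lyz1* fell by 1.46 (SE 0.11) in M2. *Lyz1* and *Lyz2* are close paralogues, so their values are uncertain where reads match both. *Pglyrp1*, a peptidoglycan recognition protein, fell by 1.21 (SE 0.34) in M2 from a mean of 0.963 CPM.

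Of the 8 receptor partners, 6 were higher and 1 lower in M1, and 4 were higher and 3 lower in M2. *Irgm1*, an immunity-related GTPase, had 72.8 to 351 CPM in M0, 1617 to 1820 in M1 and 57.9 to 115 in M2, with every M1 library above all others. Its log2 fold change was 3.75 in M1 (SE 0.14). *Carmil2* (log2 fold change 0.50, SE 0.22, padj = 0.0374, edgeR quasi-likelihood test, in M2) had means from 0.289 to 0.421 CPM and lost its call in 11 of 21 other settings.

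Among 9 ubiquitin ligases and conjugating enzymes, 7 were higher and 1 lower in M1, and 3 were higher and 2 lower in M2. All 3 genes of the linear ubiquitin chain assembly complex rose in M1: *Rnf31*, its catalytic subunit, by a log2 fold change of 1.24 (SE 0.08), *Sharpin* by 0.86 (SE 0.04) and *Rbck1* by 0.79 (SE 0.03). *Peli3*, a Pellino ubiquitin ligase, fell by 1.56 (SE 0.11) in M1, from a mean of 4.39 to 1.49 CPM. *Itch*, a ligase of the HECT family, rose in M2 with a log2 fold change of 0.54 (SE 0.07) and was not called in M1.

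Of the 4 tested deubiquitinases and inhibitors, 3 were higher and 1 lower in M1, and 1 was higher and 1 lower in M2. *Otulin*, which removes linear chains, fell by 0.60 (SE 0.03) in M1 and rose by a log2 fold change of 0.32 (SE 0.03) in M2, and *Cyld*, a deubiquitinase of linear and other chains, rose by 0.79 (SE 0.04) in M1 and fell by 0.11 (SE 0.04) in M2. Among 7 genes of the downstream kinase complexes, 2 were higher and 1 lower in M1, and 2 were higher and 3 lower in M2. *Chuk*, encoding IKKα, rose in M1 with a log2 fold change of 1.04 (SE 0.03), while *Ikbkg*, encoding the regulatory subunit NEMO, fell by 0.50 (SE 0.05) in M1 and rose by 0.66 (SE 0.05) in M2. *Otulin*, *Cyld*, *Sharpin* and *Rbck1* were named after their values were seen.

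**Figure D5:**
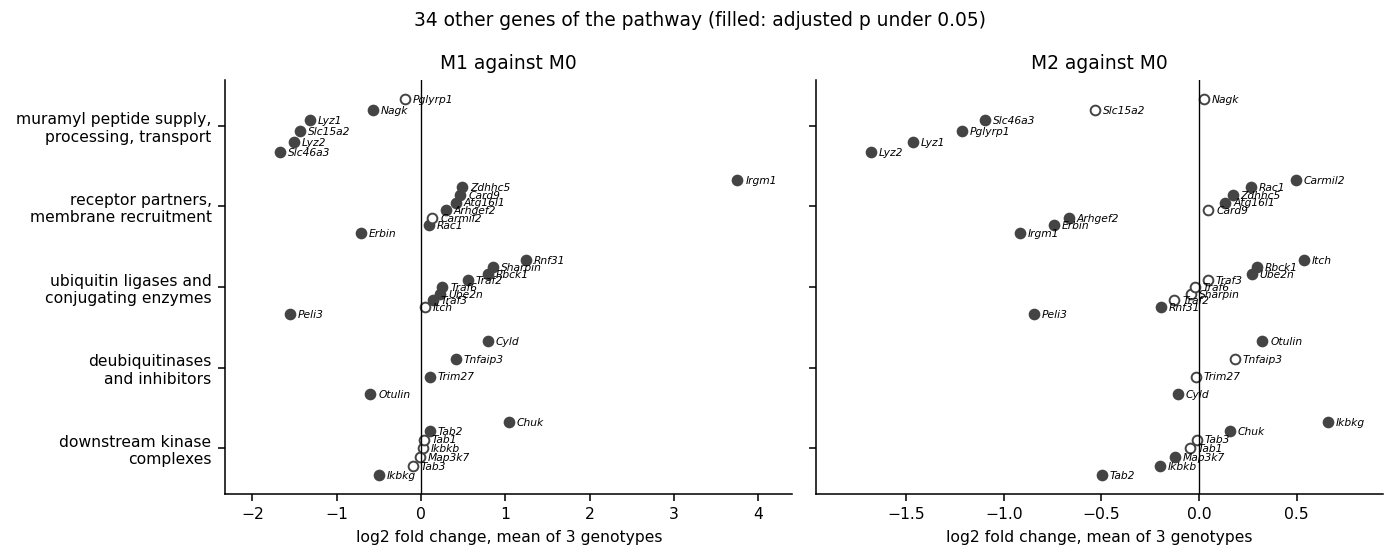
Log2 fold changes of the 34 other pathway genes, averaged over the 3 genotypes, in M1 (left) and M2 (right) against M0, grouped by role, with filled symbols for an adjusted p under 0.05. The genes for supply and transport of muramyl peptides lie left of 0 in M1, and *Irgm1* lies at 3.75.

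*Tnfaip3*, encoding the ubiquitin-editing enzyme A20, was the single one of the 34 genes called between genotypes. In M1 it had 45.9, 52.3, 45.9, 48.2 and 50.05 CPM in *Faminp.254I*, 50.4, 50.8, 59.6, 59.0 and 51.6 in *Faminp.254V*, and 42.1, 63.4, 103, 101 and 105 in *Faminp.284R*. Replicates 3, 4 and 5 of *Faminp.284R* were highest, as for *Birc3* and *Nos2*, and its replicate 1 was the lowest of the 15. The log2 fold change between *Faminp.284R* and *Faminp.254I* was 0.77 (SE 0.18, padj = 0.0339, edgeR quasi-likelihood test). The call was lost in 16 of 23 other settings, among them 13 of the 15 fits that left out a mouse, limma-voom (padj = 0.162), no filter on low counts (0.0719) and only the 10 libraries compared (0.809), and the adjusted p ran from 0.000841 to 0.809 over all of them.

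Across the 45 libraries, the 5 genes whose log2 CPM was most like that of *Nod2* were *Apobec3*, *Cnp*, *Parp8*, *Jak3* and *Irgm2*, with Pearson's r from 0.986 to 0.983. For *Ripk2* they included *Cd52*, *Chchd3*, *Suclg1* and *St8sia1*, with r from 0.977 to 0.968. These are descriptions over libraries that fall into 3 polarization clusters and share depth and mice. After the group means were removed, r ranged from 0.495 to 0.821 for the first 5 and from 0.436 to 0.68 for these 4. *Nod1* and *Nod2* had r = 0.977 over the 45 libraries and 0.485 after the group means were removed, and *Nod2* and *Ripk2* had -0.08 and 0.002.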

How the data were processed

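RNA of 45 cultures from 15 mice was sequenced on poly(A)-selected, strand-specific, single-end libraries. Per the labels the reads were handled with FastQC, Trim Galore and HISAT2 on mm10 (the design text names STAR), and the authors deposited raw counts per gene for 29307 genes and a table of CPM for 11900 of them. The deposited CPM values were not tested: multiplied by library size they gave the deposited counts in 100% of values within 0.01 reads. The authors' own test was limma-voom.

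Groups came from the labels (3 genotypes by 3 polarizations, 5 mice each). The counts were fitted with edgeR 4.0.16 in R 4.3.3 (filterByExpr, TMM, robust quasi-likelihood, 9 groups in 1 fit, 12905 genes), with Benjamini-Hochberg adjustment and a threshold of 0.05. CPM given in the text are counts scaled by TMM library size, and log2 CPM has a prior count of 2. Fold changes and SE are on the log2 scale. The p-values of this fit measure the spread between libraries within a group, each from a different mouse. The fit has no term for mouse or replicate number, so polarizations were compared without pairing the cultures of a mouse. Genotype over polarizations was tested on counts summed per mouse (13555 genes). Alternatives were 26 settings, among them DESeq2 1.42.0, limma-voom (limma 3.58.1), other filters, blocks and each mouse left out. The fit was tested on simulated counts drawn independently with 1 spread for all genes and no effect of mouse or replicate number. That simulation therefore cannot tell how the fit handles libraries that deviate together. The 8 genes, the list of 36 pathway genes and the marker lists were chosen with earlier results of these data known. Genes named beside the 8 are the 3 pathway genes with the largest and the 3 with the smallest fold change among those called in M1 and in M2 against M0, each pathway gene called between genotypes, and the 5 genes most like *Nod2* and *Ripk2*, of which 1 is not reported here.

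Of 11 marker lists, those not given in the report were low: T cell markers summed to at most 1.11 CPM, NK cell to 0.495, erythroid to 0.0426, mast cell or basophil to 2.37 and B cell to 11.8 CPM.

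Within a genotype, the same replicate number in M0, M1 and M2 was taken from the labels as the same mouse. Between 2 polarizations of such a mouse, the correlation of deviations from group means exceeded 0.1 in 13 of 15 mice for M0 and M1. It did so in 15 of 15 for M0 and M2 and in 10 of 15 for M1 and M2 (r from -0.12 to 0.43). These correlations cannot tell a shared mouse from a shared replicate number. Across genotypes the number pairs libraries in M0 and M1, where the correlation of deviations from group means exceeded 0.1 in 15 of 15 pairs each (11151 genes), and in M2 it did so in 13 of 15.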

Additional observations from a re-analysis of the deposited data

Results flagged for a closer look

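In 5 of 72 groups of 5 libraries, 1 library lay far from the other 4 (Dixon's test at its 95% critical value of 0.71), where chance alone flags about 1 group in 20. *Ripk2* in replicate 2 of *Faminp.254V* M1 was 33.9 CPM, against 52.4 to 55.2 in the others. In M2 of the same mouse *Ripk2* was 74.9 CPM, against 62.6 to 64.9 in the others. *Birc2* was 24.98 CPM in replicate 1 of *Faminp.254V* M2 (others 28.9 to 30.4) and 32.9 CPM in replicate 2 of *Faminp.284R* M0 (others 28.8 to 29.8). *Slc15a3* was 1066 CPM in replicate 4 of *Faminp.254I* M2 (others 664 to 766).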

How the results depend on the processing

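The number of the 8 genes called in each comparison stayed at 7 or 8 between polarizations and at 0 between genotypes under every setting that was run, the added one chosen after seeing the data (reads recovered from the CPM table) included. Of 552 single-gene values between polarizations, 547 kept direction and call and 5 lost the call, all on leaving out a mouse (*Birc2* in M2 against M0 and *Xiap* in M1 against M2, as given above). Between genotypes, directions were tabulated only for the 6 differences of *Ripk2* and *Birc3* with an unadjusted p under 0.05, whose 139 values stayed uncalled in the same direction. With mouse as a replicate block, 7 of 8 genes were called in M1 against M0, 8 in M2 against M0 and 8 in M1 against M2, and with replicate number as the block 0 were called between genotypes; the block changed no call of the 8 genes. Over all genes, those called between *Faminp.284R* and *Faminp.254I* in M1 were 34, but 64 with the replicate block, 64 with DESeq2, 11 with limma-voom, 1 with the 10 libraries alone, and 0 to 109 on leaving out a mouse, with 1, 1 and 0 without replicate 3, 4 or 5 of *Faminp.284R* and 96 and 109 without its replicate 1 or 2. Between *Faminp.284R* and *Faminp.254V* in M1 they were 10, 36 with the block, and 0 to 65 on leaving out a mouse. The cause was not tested. *Birc3* between *Faminp.284R* and *Faminp.254I* in M1 had a log2 fold change of 0.38 to 0.62 and an adjusted p of 0.0589 to 1 over all settings.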
